A study of Mus musculus with 16 samples.

Results

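The CXC chemokines of F4/80+ adipose tissue macrophages (ATMs) are described here across genotype and time on diet. They are 9 genes, Cxcl1, Cxcl2, Cxcl3, Cxcl9, Cxcl10, Cxcl12, Cxcl13, Cxcl14 and Cxcl16, taken by gene name from the 37310 gene rows of the count table. ATMs were sorted from the epididymal white adipose tissue (EpiWAT) of male mice that were 7 to 10 weeks old when a high-fat diet (HFD, 60% fat) began. WT mice and mice with myeloid deletion of IRF5 (IRF5-KO) were fed HFD for 4 weeks (ST-HFD) or 12 weeks (LT-HFD), with 4 libraries in each of the 4 groups. IRF5-KO mice carried Irf5 flox/flox alleles (C57BL/6-Irf5tm1Ppr/J) and the LysM-Cre allele B6.129P2-Lyz2tm1(cre)Ifo/J, which places Cre in the Lyz2 gene and is active in several myeloid cell types, neutrophils and monocytes included. Every library came from HFD-fed mice. Group names follow the labels, and directions over time follow the duration labels, which no value here checks.

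CXC chemokines are small secreted proteins that steer leukocytes through G protein-coupled receptors. Members with an ELR motif before the first cysteines (Cxcl1, Cxcl2 and Cxcl3 in the mouse) attract neutrophils through Cxcr2 and are classic NF-kappaB targets. Cxcl9 and Cxcl10 are induced by interferon and attract T and NK cells through Cxcr3. Cxcl12 holds and guides leukocytes and progenitors through Cxcr4, Cxcl13 attracts B cells through Cxcr5, Cxcl14 is made by many epithelial and stromal cells, and Cxcl16 is a membrane-anchored ligand of Cxcr6 that is shed by metalloproteases. In obese fat, these signals are known for drawing neutrophils, lymphocytes and monocytes to the tissue.

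The members sit on 4 chromosomes of the GRCm38 build, as annotated by GENCODE M21. Cxcl3 (chr5:90786103-90789600), Cxcl1 (chr5:90891241-90893115) and Cxcl2 (chr5:90903871-90905938), all on the plus strand, lie within 119.8 kb. Cxcl9 (chr5:92321347-92328079) and Cxcl10 (chr5:92346638-92348889), both on the minus strand, lie within 27.5 kb. Cxcl13 is at chr5:95956951-95961068 (plus), Cxcl12 at chr6:117168535-117181367 (plus), Cxcl14 at chr13:56288643-56296551 (minus) and Cxcl16 at chr11:70453983-70459984 (minus). Cxcl10 overlaps Art3 and Cxcl16 overlaps Zmynd15 on the opposite strand, and the strand setting of the counting is not given in the sources used here. Transcripts of Cxcl2 and Cxcl3 share an exact stretch of 157 bases, so reads of this pair could be split or lost, and the next longest stretch among the members was 23 bases.

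The 250 bases before the transcription start are shown for the neutrophil chemokines, which lie in the same part of chromosome 5 and of which Cxcl1 and Cxcl2 varied together between libraries, and for the members that changed with time on diet in the libraries labelled IRF5-KO (RefSeq promoters, build GRCm38.p6, 5′ to 3′ on the gene's strand). Capitals mark matches, on either strand, to a kappaB motif, to the ISRE core bound by interferon regulatory factors, or to the TATA box TATAAA. The windows are Cxcl1 chr5:90890995-90891244 (plus), Cxcl2 chr5:90903649-90903898 (plus), Cxcl3 chr5:90785851-90786100 (plus), Cxcl10 chr5:92348890-92349139 (minus), Cxcl12 chr6:117168285-117168534 (plus) and Cxcl14 chr13:56296552-56296801 (minus).
Cxcl1: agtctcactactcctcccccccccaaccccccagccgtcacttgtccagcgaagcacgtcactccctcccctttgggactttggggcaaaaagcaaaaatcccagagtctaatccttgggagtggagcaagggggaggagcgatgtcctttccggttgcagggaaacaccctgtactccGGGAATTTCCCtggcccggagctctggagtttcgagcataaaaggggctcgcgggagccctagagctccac
Cxcl2: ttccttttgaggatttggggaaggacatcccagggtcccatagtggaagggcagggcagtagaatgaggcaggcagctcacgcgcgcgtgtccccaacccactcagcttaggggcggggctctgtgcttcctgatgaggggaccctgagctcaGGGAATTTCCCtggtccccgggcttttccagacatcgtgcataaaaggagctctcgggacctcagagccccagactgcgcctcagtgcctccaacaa
Cxcl3: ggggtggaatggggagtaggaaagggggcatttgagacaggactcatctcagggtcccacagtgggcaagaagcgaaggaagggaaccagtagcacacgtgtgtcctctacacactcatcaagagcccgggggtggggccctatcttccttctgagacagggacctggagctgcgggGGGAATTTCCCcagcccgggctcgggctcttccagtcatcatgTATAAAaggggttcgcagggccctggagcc
Cxcl10: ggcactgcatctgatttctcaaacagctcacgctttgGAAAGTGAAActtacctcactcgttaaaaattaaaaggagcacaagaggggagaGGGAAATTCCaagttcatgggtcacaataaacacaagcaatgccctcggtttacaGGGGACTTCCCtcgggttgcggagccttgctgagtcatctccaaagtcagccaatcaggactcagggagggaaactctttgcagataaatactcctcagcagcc
Cxcl12: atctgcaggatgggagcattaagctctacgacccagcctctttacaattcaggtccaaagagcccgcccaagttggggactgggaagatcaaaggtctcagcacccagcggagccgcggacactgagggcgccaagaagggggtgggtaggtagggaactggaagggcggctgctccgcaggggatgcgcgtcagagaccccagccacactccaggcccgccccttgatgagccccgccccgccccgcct
Cxcl14: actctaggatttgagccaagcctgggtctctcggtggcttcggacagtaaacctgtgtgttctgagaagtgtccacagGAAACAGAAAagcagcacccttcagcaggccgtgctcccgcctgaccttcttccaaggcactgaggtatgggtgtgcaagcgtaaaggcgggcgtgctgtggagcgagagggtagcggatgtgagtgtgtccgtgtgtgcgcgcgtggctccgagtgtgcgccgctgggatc

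Cxcl1, Cxcl2 and Cxcl3 each held 1 kappaB site with the same letters, where the matches on both strands overlapped, and its first base was at -71, -97 and -73 from the start. In Cxcl3 a TATA box stood at -30. Cxcl10 held an ISRE core at -213 and kappaB sites at -159 and -104, the latter made of overlapping matches. Cxcl14 held an ISRE core at -172, and Cxcl12 held none of these motifs. Of the windows not printed, those of Cxcl9 and Cxcl13 matched, among these motifs, only the letters TATAAA, at -195 and -46. Other elements of these windows are not described. Among all 32851 promoter windows of this length, 7.25% held the kappaB motif, 2.98% the ISRE core and 12.4% the TATA box. A promoter was matched for 8 of the 9 members, all but Cxcl16.

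ST-HFD libraries were deeper, with total counts of 3860469 to 4958131, than LT-HFD libraries, with 3279332 to 3792898. Between 18.6% and 24.1% of the counts on ST-HFD, but 26.1% to 34.55% on LT-HFD, fell on 3 features, the mitochondrial rRNA genes mt-Rnr1 and mt-Rnr2 and mmu-mir-689-2. The part of these differences in the changes over time was not tested, though leaving those features out of the library sizes changed no call of a member. Irf5 itself was no lower under the label IRF5-KO. In CPM, counts scaled to each library's size with TMM factors, it was at 205 to 251.2 in WT and 253 to 274.5 CPM in IRF5-KO on ST-HFD, and at 168 to 213 CPM in WT and 203 to 256 CPM in IRF5-KO on LT-HFD. The edgeR log2 fold change of Irf5 was 0.13 (SE 0.09, adjusted p = 0.9998) on ST-HFD and 0.24 (SE 0.12, adjusted p = 0.853) on LT-HFD. Over time, Irf5 was lower on LT-HFD in WT, by -0.30 (SE 0.11, edgeR adjusted p = 0.0485), and at -0.19 (SE 0.11, edgeR adjusted p = 0.181) in IRF5-KO. A per-gene total also covers exons outside the floxed part, so it does not check the deletion, and genotypes are therefore given as labelled. Lyz2, the gene that carries Cre, was lower without overlap under the IRF5-KO label, by -0.97 (SE 0.14, edgeR adjusted p = 0.106) on ST-HFD and by -1.04 (SE 0.14, edgeR adjusted p = 0.0484) on LT-HFD. Adgre1, which encodes F4/80, was at 509 to 1007 CPM in every library. The 8 macrophage markers summed to 6876 to 10847 CPM, against 97.3 to 220.1 CPM for 4 monocyte markers, 17.3 to 128 CPM for 6 dendritic cell markers, 0.607 to 7.18 CPM for 7 T and NK cell markers, 2.63 to 9.31 CPM for 4 B cell markers and 14.4 to 45.8 CPM for 5 neutrophil markers, of which Ly6g was at 0 in every group. By group, the macrophage sum, Lyz2 included, was 10575 to 10847 CPM in WT ST-HFD and 8464 to 9551 CPM in IRF5-KO ST-HFD. It was 8553 to 10700 CPM in WT LT-HFD and 6876 to 7297 CPM in IRF5-KO LT-HFD. Over time, 1 of these 8 markers was called lower in WT, where 13.2% of all genes were. In IRF5-KO, 2 were higher and 2 lower, where 15.6% and 17.2% of all genes were. RNA of fibroblasts was present and differed with duration, as given beside Cxcl12 below.

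Per kilobase of exon, Cxcl2 RNA was the most abundant of the 9, at a mean of 229 CPM per kb over the 16 libraries (SD 85.1). Cxcl16 (42.8, SD 5.76), Cxcl1 (40.7, SD 19.3), Cxcl10 (22.1, SD 10.9) and Cxcl13 (19.98, SD 39.4) followed, all in CPM per kb. Cxcl12 (8.19, SD 4.14), Cxcl9 (5.50, SD 5.92), Cxcl14 (2.49, SD 1.54) and Cxcl3 (0.376, SD 0.347) were the lowest on the same scale. At the ends of this order, Cxcl2 and Cxcl3 each differed from the neighbour by more than 1 SD of either gene. Every other pair of neighbours was closer than 1 SD of the gene of the pair that varied more. With the length of the longest protein-coding transcript in place of all exons, Cxcl1 (80.1 CPM per kb) passed Cxcl16 (47.9 CPM per kb), and the other 7 ranks were as before. The order also differed between groups. Cxcl1 was above Cxcl16 in both LT-HFD groups (46.2 against 44.5 CPM per kb in WT and 51.3 against 40.2 in IRF5-KO). Cxcl13 was at 49.6 CPM per kb (SD 77.9) in WT LT-HFD, through 1 library, and at 7.61 to 12.9 in the other groups, below Cxcl12 (11.5) in IRF5-KO LT-HFD at 9.82. Cxcl16 varied least between libraries, by 1.61-fold from lowest to highest. Among members with counts in every library, Cxcl13 varied most, by 111-fold. Cxcl3, at 0 in 3 libraries, has no such ratio.

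**Figure D1:**
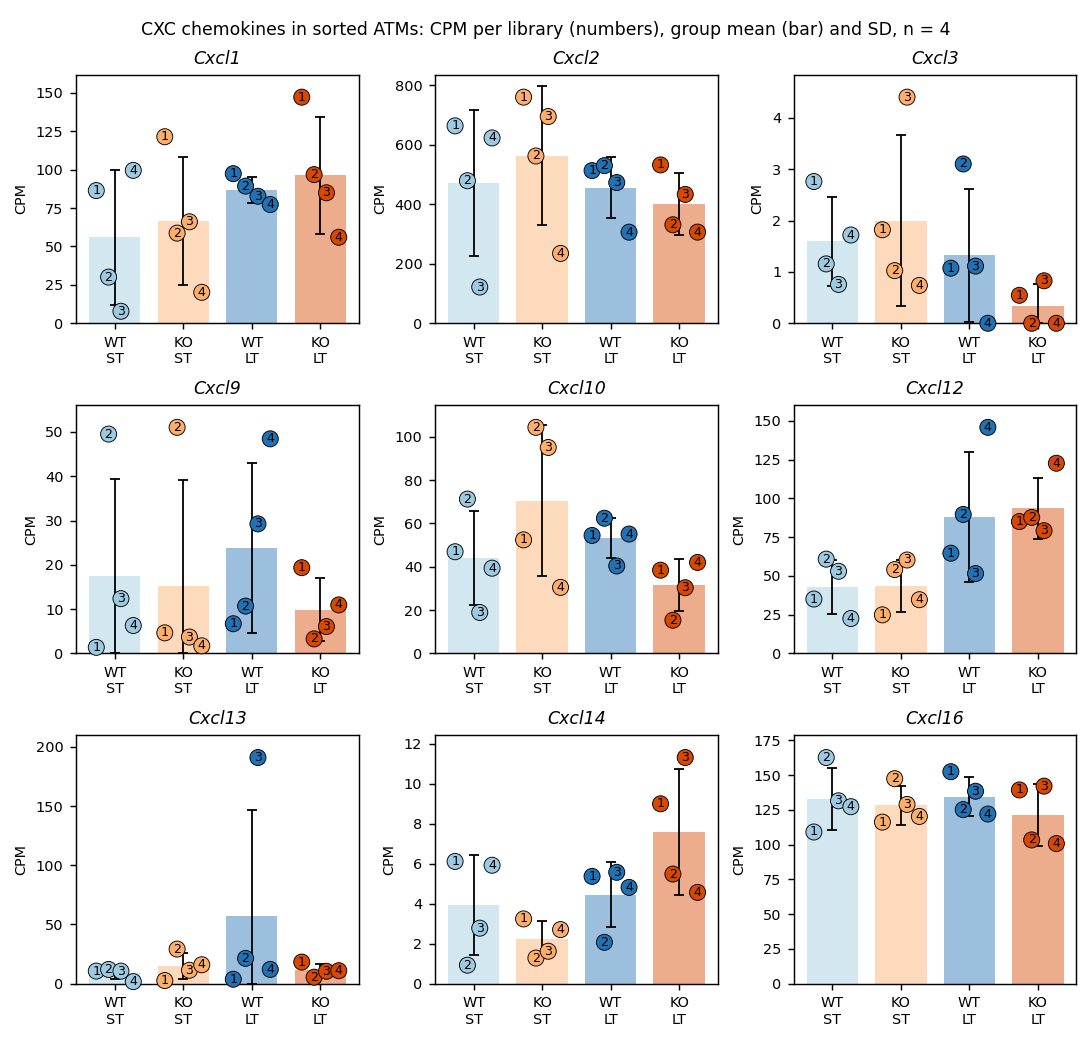
Level of each CXC chemokine in CPM (y axis, linear from 0, own scale per gene) in the 4 groups (x axis, KO is the label IRF5-KO). Numbered points are the 4 libraries of a group, bars are means and whiskers are SD, cut at 0. Cxcl2 reached 760.2 CPM, Cxcl12 was above 50 CPM in every LT-HFD library, and 1 library, WT LT-HFD replicate 3, held 191 CPM of Cxcl13.

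Between genotypes, no CXC chemokine passed the test at either duration. Of the 9 members, 8 passed the filter on low counts and Cxcl3 did not. On ST-HFD, edgeR called 0 of these 8 at an adjusted p under 0.05, and 0.00913% of the 10958 genes tested. No member reached an unadjusted p under 0.05 (1.84% of all genes did), and DESeq2 also called none. The number of genes with such a p was 202 of 10958, but 424 of 11147 without IRF5-KO ST-HFD replicate 4 and 451 of 10958 with the replicate number as a block. On LT-HFD, edgeR called 0 of 8 members against 0.0182% of 10987 genes, and DESeq2 called none. There, Cxcl10 and Cxcl13 had an unadjusted p under 0.05, as did 5.72% of all genes tested. The median log2 fold change of the 8 members was 0.13 in the first comparison and -0.17 in the second, beside a median of 0 over all genes at both durations. P-values throughout measure the spread between the libraries of a group, since nothing in the labels names the animals behind them.

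Over time on diet, 2 of the 8 tested members were called in WT, Cxcl12 and Cxcl13, both higher on LT-HFD, where 25.3% of 11560 genes were called, 12.1% higher and 13.2% down. Under the IRF5-KO label, 3 of 8 were called, Cxcl12 and Cxcl14 higher and Cxcl10 lower, where 32.8% of genes were called (15.6% up and 17.2% down). With so many genes called, these shares of members are near the background. The median log2 fold change of the members was 0.39 in WT and -0.20 in IRF5-KO, beside 0.02 and 0.04 over all genes. The durations came from separate libraries, and mice on LT-HFD were also older. Time on diet, age and any difference in sorting or library preparation therefore cannot be told apart. The same holds for fewer cells of a type and less RNA per cell.

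**Figure D2:**
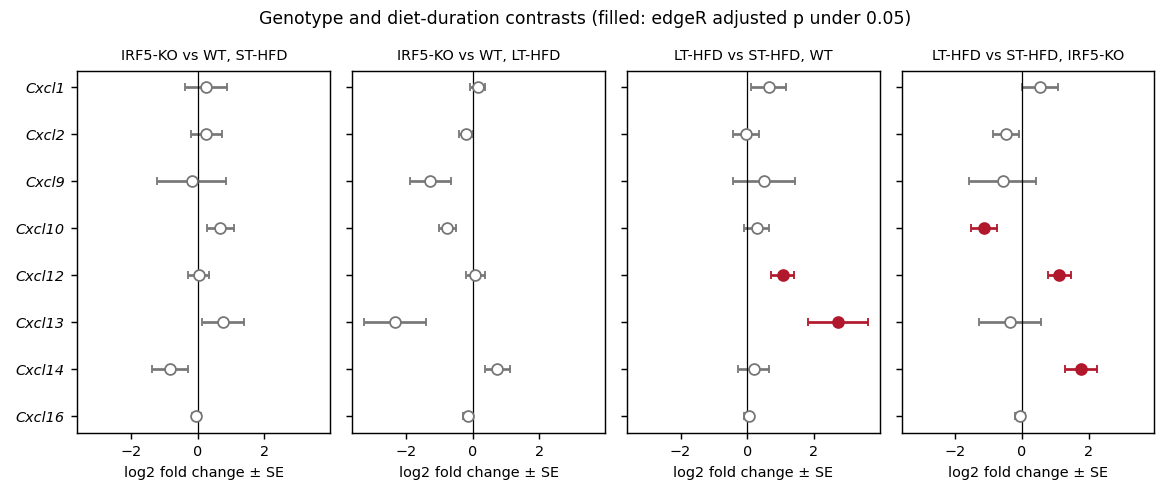
Log2 fold change (x axis) of the 8 tested CXC chemokines (y axis) in the 2 genotype comparisons and the 2 duration comparisons. Points are edgeR estimates, whiskers are SE, and filled red points have an adjusted p under 0.05. Both genotype panels hold no filled point, and Cxcl12 is filled in both duration panels at 1.06 and 1.12.

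Among the neutrophil chemokines, Cxcl2 varied widely between libraries and passed no test. It was at 664, 479, 122 and 623 CPM in WT ST-HFD replicates 1 to 4. It was at 760.2, 562, 695 and 235 CPM in IRF5-KO ST-HFD. On LT-HFD it was at 513, 529.9, 473 and 306 CPM in WT and at 532, 331, 433 and 306.5 CPM in IRF5-KO. The groups overlapped throughout, and the widest spread was on ST-HFD, where WT replicate 3 and IRF5-KO replicate 4 lay far below the other libraries of their groups. The log2 fold change of Cxcl2 between genotypes was 0.25 (SE 0.46, edgeR adjusted p = 0.9998) on ST-HFD and -0.19 (SE 0.21, edgeR adjusted p = 0.956) on LT-HFD. Over time it was -0.03 (SE 0.39, edgeR adjusted p = 0.967) in WT and -0.47 (SE 0.39, edgeR adjusted p = 0.384) in IRF5-KO. Leaving out these 2 libraries, chosen after the data were seen and the lowest in Cxcl2 of their groups, lowers the change over time by construction. It was then -0.73 (SE 0.21, edgeR adjusted p = 0.0161) in IRF5-KO and -0.34 (edgeR adjusted p = 0.275) in WT, which is no support for a fall.

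Cxcl1, the closest relative of Cxcl2 in position and function, showed the same 2 low libraries. It was at 86.4, 30.1, 7.82 and 99.5 CPM in WT ST-HFD and at 121, 58.7, 66.1 and 20.2 CPM in IRF5-KO ST-HFD. On LT-HFD it was at 97.4, 89.3, 82.7 and 77.3 CPM in WT, the tightest of the 4 groups, and at 147, 96.8, 85.0 and 56.0 CPM in IRF5-KO. All groups overlapped in each comparison. The 4 log2 fold changes of Cxcl1 ran from 0.15 (SE 0.23, genotype on LT-HFD) to 0.64 (SE 0.53, duration in WT), and the smallest edgeR adjusted p was 0.417.

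Cxcl3, the least abundant member, gave 14, 5, 3 and 9 counts in WT ST-HFD, 9, 4, 19 and 3 counts in IRF5-KO ST-HFD, 4, 9, 4 and 0 counts in WT LT-HFD, and 2, 0, 3 and 0 counts in IRF5-KO LT-HFD. The groups thus held 31, 35, 17 and 5 counts of Cxcl3 in all. A count of 0 allows up to 3 counts, which is 0.803 to 0.913 CPM in the 3 libraries at 0. It was not tested in the filtered fit. Without the filter, its log2 fold change between LT-HFD and ST-HFD in IRF5-KO was -2.42 (SE 0.89, edgeR adjusted p = 0.0602), and DESeq2 gave -2.51 (SE 1.01, adjusted p = 0.0493). Cxcl3 passed the filter, and was called, without IRF5-KO ST-HFD replicate 4, the library with the fewest counts in its group (-2.67, SE 0.95, edgeR adjusted p = 0.0439) and without that library and WT ST-HFD replicate 3 (-2.67, edgeR adjusted p = 0.0469). It passed the filter without a call in 6 other fits that left out 1 library, with an edgeR adjusted p of 0.0523 to 0.138. Leaving out IRF5-KO ST-HFD replicate 4 lowers the change over time by construction, so the calls without it are no support for a fall. Most like Cxcl3 were Ubr3 (r = 0.86), Zfat (r = 0.83) and Il15 (r = 0.83). With so few counts, and the stretch shared with Cxcl2, the level of Cxcl3 is uncertain.

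Cxcl1 and Cxcl2 varied together across the 16 libraries, with a Pearson r of log2(CPM + 1) of 0.78, and 0.93 once each group was centred on its mean. The libraries share diet duration, depth and composition, so this and the correlations that follow are descriptions. The genes most like Cxcl2 of 9787 with at least 5 CPM were Tnfaip3 (r = 0.98), which encodes the NF-kappaB feedback inhibitor A20, then Tnf (r = 0.95) and Tnfsf9 (r = 0.93). Those most like Cxcl1 were Ptger4 (r = 0.92), a prostaglandin E2 receptor, Plk2 (r = 0.91) and Mapk6 (r = 0.89). The NF-kappaB arm was a list of 18 genes, from Tlr4 and Myd88 to Il1b and Nfkbia, with Tnfaip3 and Tnf among them. Its summed level had an r of 0.92 with Cxcl2 (0.94 within groups) and 0.59 with Cxcl1 (0.82 within groups). This sum was lowest in the same libraries, 1914 CPM in WT ST-HFD replicate 3 and 2846 CPM in IRF5-KO ST-HFD replicate 4, against 3678 to 5936 CPM in the other ST-HFD and WT LT-HFD libraries and 2963 to 4342 CPM in IRF5-KO LT-HFD. The part of library handling in this shared variation was not tested.

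**Figure D3:**
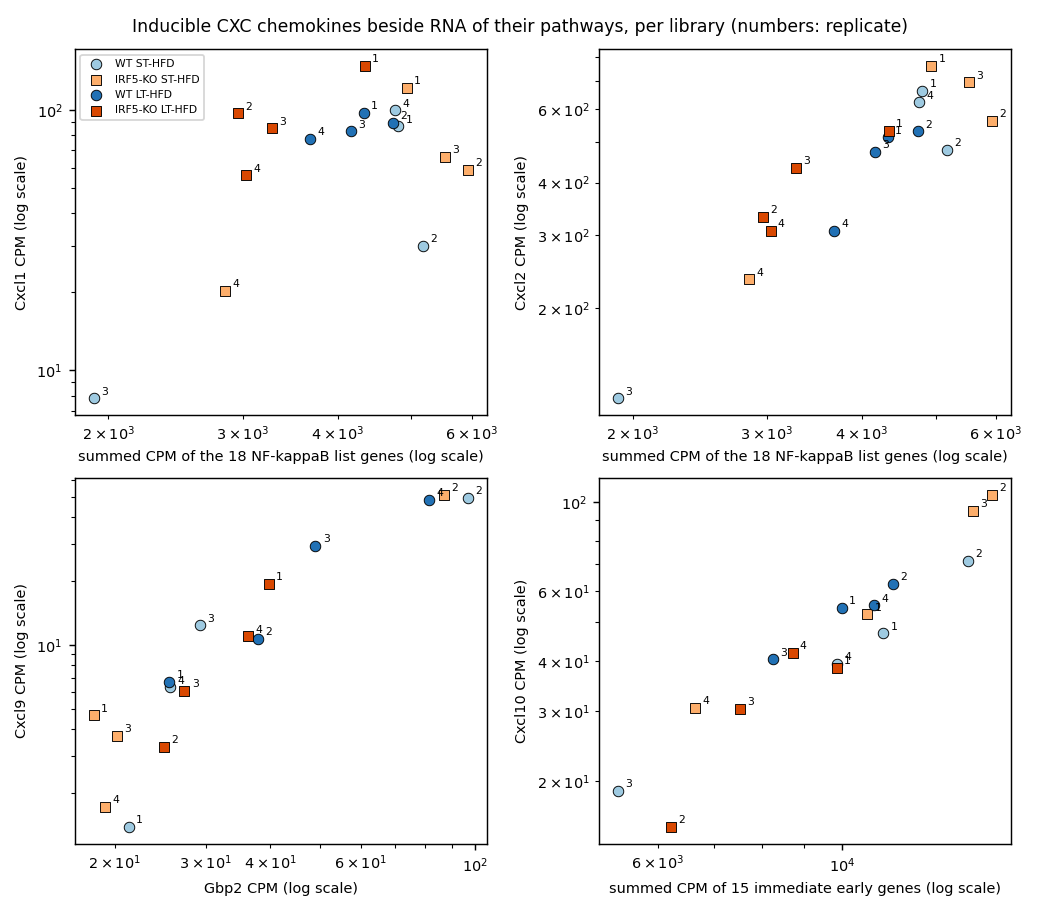
Each point is 1 of the 16 libraries, numbered by replicate, with log scales on both axes. The top panels plot Cxcl1 and Cxcl2 (CPM, y axis) against the summed CPM of the 18 NF-kappaB list genes. The bottom panels plot Cxcl9 against Gbp2 (CPM) and Cxcl10 against the summed CPM of the 15 immediate early list genes. Cxcl2 and Cxcl10 follow their x axis most closely of the sums shown (r = 0.92 and 0.95), with WT ST-HFD replicate 3 at or near the lower left in the panels of Cxcl1, Cxcl2 and Cxcl10.

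The genes of the NF-kappaB arm gave no call between genotypes. On ST-HFD the smallest p belonged to Il1a, which encodes interleukin-1 alpha, at 1.36 (SE 0.59, edgeR adjusted p = 0.9998). On LT-HFD it belonged to Zfp36, whose product destabilises cytokine mRNA, at -0.49 (SE 0.13, edgeR adjusted p = 0.853). Over time in WT, 1 of 17 tested was higher and 1 lower (median 0.14), where 12.1% and 13.2% of all genes were. The interleukin-1 receptor gene Il1r1 rose by 3.30 (SE 0.49, edgeR adjusted p = 9.23e-05) and the subunit gene Nfkb1 changed by -0.40 (SE 0.10, edgeR adjusted p = 0.00494). In IRF5-KO, 1 of 17 was higher and 7 were lower (median -0.39, beside 0.04 over all genes), where 15.6% and 17.2% of all genes were. Il1r1 rose by 3.42 (SE 0.48), and the subunit genes Nfkb1 (-0.60, SE 0.10), Rela (-0.56, SE 0.13) and Relb (-0.66, SE 0.17) fell, with edgeR adjusted p of 4.13e-05, 0.000141, 0.00291 and 0.00525. Il1r1, which fibroblasts also express, rose beside the fibroblast markers described with Cxcl12 (median 2.79 in WT and 2.71 in IRF5-KO), and its highest library, WT LT-HFD replicate 4 at 44.4 CPM, was also the highest in those markers. The part of fibroblast RNA in its rise was not tested.

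Of the interferon-induced members, Cxcl9 was at 1.38, 49.5, 12.4 and 6.31 CPM in WT ST-HFD. It was at 4.66, 51.0, 3.71 and 1.72 CPM in IRF5-KO ST-HFD, where replicate 2 alone was high. On LT-HFD it was at 6.71, 10.7, 29.2 and 48.4 CPM in WT and at 19.4, 3.29, 6.07 and 10.96 CPM in IRF5-KO. On ST-HFD, replicate 2 of each genotype was far above the others, and all groups overlapped. No comparison passed the test. Of the 4, the one farthest from 0 was between genotypes on LT-HFD, at -1.27 (SE 0.61, edgeR adjusted p = 0.853), with other fold changes of -0.19 (SE 1.04) between genotypes on ST-HFD, 0.49 (SE 0.93) over time in WT and -0.58 (SE 1.01) over time in IRF5-KO.

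The summed level of the interferon-gamma arm had an r of 0.63 with Cxcl9, and 0.84 within groups. The single genes most alike were Gbp2 (r = 0.94) and Gbp6 (r = 0.90), which encode guanylate-binding proteins, and Iigp1 (r = 0.87), an interferon-inducible GTPase, and Gbp2 is on that list. Its r with its chromosomal neighbour Cxcl10 was 0.37, and 0.45 within groups. T and NK cell markers, the cells that Cxcl9 attracts, summed to 5.55 and 7.18 CPM in the replicate 2 libraries of WT and IRF5-KO ST-HFD and to 6.42 CPM in WT LT-HFD replicate 4, the libraries with the most Cxcl9. The same sum was 5.80 CPM in WT ST-HFD replicate 3, where Cxcl9 was at 12.4 CPM, and the part of these cells was not tested. None of these T and NK cell markers passed the filter on low counts.

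Cxcl10 was at 46.9, 71.2, 18.9 and 39.4 CPM in WT ST-HFD and at 52.4, 104, 95.1 and 30.5 CPM in IRF5-KO ST-HFD. On LT-HFD it was at 54.5, 62.4, 40.4 and 55.1 CPM in WT and at 38.4, 15.4, 30.3 and 42.0 CPM in IRF5-KO. Over time in IRF5-KO, Cxcl10 fell by 1.14 on the log2 scale (SE 0.39, edgeR adjusted p = 0.0318), with 1 ST-HFD library, replicate 4, inside the LT-HFD range. In WT the change was 0.28 (SE 0.38, edgeR adjusted p = 0.639). Between genotypes it was 0.67 (SE 0.40, edgeR adjusted p = 0.9998) on ST-HFD and -0.76 (SE 0.26, unadjusted p = 0.0138, edgeR adjusted p = 0.853) on LT-HFD, where only IRF5-KO replicate 4 lay inside the WT range.

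The fall of Cxcl10 in IRF5-KO lost its call with the replicate number as a block (-1.08, edgeR adjusted p = 0.0624). It also lost its call without IRF5-KO ST-HFD replicate 2 (-0.89, edgeR adjusted p = 0.112) or replicate 3 (-0.97, adjusted p = 0.0961), and without IRF5-KO LT-HFD replicate 2 (-0.91, adjusted p = 0.0934) or replicate 3 (-1.13, adjusted p = 0.0705). The genes most like Cxcl10 were Jun (r = 0.95), an immediate early gene, Nfkbiz (r = 0.93) and Pnrc1 (r = 0.92). Immediate early genes rise within minutes of cell stress or stimulation, tissue dissociation included. The list of 15 genes used for them also holds the heat shock chaperone genes Hspa1a and Hspa1b. Its summed level had an r of 0.95 with Cxcl10 and 0.96 within groups, and Jun is on that list. That sum was 5369 to 15187 CPM on ST-HFD and 6226 to 11519 CPM on LT-HFD.

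Some genes of the immediate early list fell over time in IRF5-KO beside Cxcl10. On LT-HFD 4 of 15 were lower and none higher (median -0.58), where 17.2% of all genes were lower: Jund (-1.01, SE 0.22), Hspa1a (-1.61, SE 0.39), Egr1 (-1.25, SE 0.38) and Fosb (-1.20, SE 0.40), with edgeR adjusted p of 0.00235, 0.00400, 0.0181 and 0.0288. In WT, 1 of 15 was called, Ier3, higher by 0.90 (SE 0.32, edgeR adjusted p = 0.0445), where 12.1% of all genes were higher and 13.2% lower, and the median was -0.10. The difference between genotypes in these counts was not tested. Between genotypes none was called. The smallest p belonged to Hspa1b on ST-HFD (0.48, SE 0.37, edgeR adjusted p = 0.9998) and to Ier3 on LT-HFD (-0.93, SE 0.24, edgeR adjusted p = 0.853). The part of the immediate early response in the level of Cxcl10 was not tested. Some markers of other leukocytes also fell over time in IRF5-KO: Cd209a (-1.52, SE 0.45, edgeR adjusted p = 0.0159), 1 of 4 dendritic cell markers tested, Ccr2 (-0.80, SE 0.20, adjusted p = 0.00543), 1 of 3 monocyte markers, of which Plac8 was at 1.66 (adjusted p = 0.0515) and Chil3 at 1.85 (adjusted p = 0.155), and Csf3r (-0.82, SE 0.23, adjusted p = 0.0122), the 1 neutrophil marker tested. Of 6 peritoneal macrophage markers, Prg4 (-3.91, SE 0.84, edgeR adjusted p = 0.00186) and F5 (-2.53, SE 0.83, adjusted p = 0.0268) fell and Gata6 (3.25, SE 0.67, adjusted p = 0.00135) rose. In WT, where Cxcl10 was not called, Prg4 also fell (-2.37, SE 0.76, edgeR adjusted p = 0.0295) and Gata6 rose (3.36, SE 0.68, edgeR adjusted p = 0.00146). F5 was at -1.04 (edgeR adjusted p = 0.344) there. The 6 dendritic cell markers summed to 49.8 to 128 CPM in IRF5-KO ST-HFD and to 17.3 to 66.0 CPM in IRF5-KO LT-HFD, with none at 0 in either group. The r of Cxcl10 with that sum was 0.77, and 0.70 within groups, and the part of these cells was not tested.

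The interferon-gamma arm gave few calls. Of its 17 listed genes 16 were matched and 14 were tested, and none was called between genotypes. On ST-HFD the smallest p belonged to Ifngr1 (-0.10, SE 0.08, edgeR adjusted p = 0.9998), a chain of the interferon-gamma receptor, and on LT-HFD to Ciita (-0.79, SE 0.15, edgeR adjusted p = 0.639), the master regulator of MHC class II genes. Over time, 1 of 14 was higher and 2 were lower in each genotype, near the shares of all genes (12.1% and 13.2% in WT, 15.6% and 17.2% in IRF5-KO). Ciita fell in WT (-1.04, SE 0.23, edgeR adjusted p = 0.00316) and in IRF5-KO (-1.69, SE 0.24, edgeR adjusted p = 4.51e-05), as did the kinase gene Jak1 (-0.32, SE 0.10, and -0.40, SE 0.10, edgeR adjusted p = 0.0304 and 0.00651). The feedback inhibitor gene Socs1 rose in WT (1.45, SE 0.35, edgeR adjusted p = 0.00565), and Ifngr1 rose in IRF5-KO (0.37, SE 0.09, edgeR adjusted p = 0.00273).

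Cxcl12 rose with time on diet in both genotypes. It was at 35.1, 60.8, 53.0 and 22.5 CPM in WT ST-HFD and at 64.7, 89.6, 51.5 and 146 CPM in WT LT-HFD. In IRF5-KO it was at 24.9, 54.1, 60.3 and 34.7 CPM on ST-HFD and at 85.1, 87.7, 79.2 and 123 CPM on LT-HFD. The IRF5-KO groups did not overlap, as was so for 14.3% of all genes in that direction, while WT LT-HFD replicate 3 lay inside the WT ST-HFD range. The log2 fold change was 1.06 (SE 0.34, edgeR adjusted p = 0.0292) in WT and 1.12 (SE 0.34, edgeR adjusted p = 0.0176) in IRF5-KO. Their difference, the interaction, was 0.06 (SE 0.48, edgeR adjusted p = 0.992), and between genotypes Cxcl12 was at 0.02 (SE 0.32, edgeR adjusted p = 0.9998) and 0.08 (SE 0.28, edgeR adjusted p = 0.992).

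The calls of Cxcl12 were close to the threshold. In WT the call was lost without ST-HFD replicate 1 (0.98, edgeR adjusted p = 0.0755), ST-HFD replicate 4 (0.85, adjusted p = 0.0834), LT-HFD replicate 2 (1.05, adjusted p = 0.0530) or LT-HFD replicate 4 (0.70, adjusted p = 0.148). In IRF5-KO it was lost without ST-HFD replicate 1 (0.93, edgeR adjusted p = 0.0504) or LT-HFD replicate 4 (0.96, adjusted p = 0.0534), and without the 2 low ST-HFD libraries (1.03, adjusted p = 0.0536). The rise stayed above 0 in each of these fits.

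Fibroblast RNA moved with Cxcl12. Of 8 fibroblast and preadipocyte markers, 8 were called higher on LT-HFD in WT (median 2.79), where 12.1% of all genes were, and 7 in IRF5-KO (median 2.71), where 15.6% were. Their summed level was 855 to 970 CPM in WT ST-HFD, 581 to 1397 CPM in IRF5-KO ST-HFD, 2591 to 7573 CPM in WT LT-HFD and 2623 to 6037 CPM in IRF5-KO LT-HFD, with no marker at 0 in any group. WT LT-HFD replicate 4 had the highest sum and the most Cxcl12. The r of Cxcl12 with this sum was 0.81 over all libraries and 0.45 within groups, and the part of fibroblast RNA in the rise was not tested. Within groups, its r was higher with the sums of T and NK cell (0.75), peritoneal macrophage (0.67) and dendritic cell markers (0.65), with which it was 0.35, -0.06 and -0.05 over all libraries. None of the 7 T and NK cell markers passed the filter on low counts, and their sum was at most 7.18 CPM. Cxcl12 is known as a product of stromal cells. The genes most like it were St5 (r = 0.94), Gpc6 (r = 0.92), which encodes a cell surface proteoglycan, and Fam115a (r = 0.91).

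**Figure D4:**
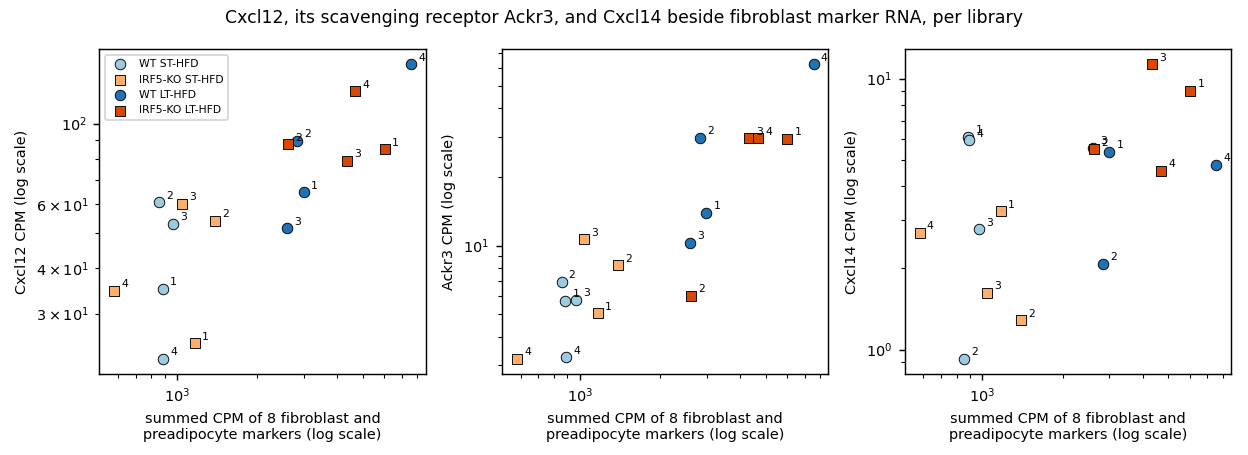
CPM of Cxcl12, of its scavenging receptor Ackr3 and of Cxcl14 (y axes) against the summed CPM of 8 fibroblast and preadipocyte markers (x axes), all on log scales, with 1 numbered point per library. The 8 LT-HFD libraries lie to the right, at 2591 CPM or more, the 8 ST-HFD libraries at 1397 CPM or less, and WT LT-HFD replicate 4 is at the upper right for Cxcl12 and Ackr3.

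Cxcl13 was low in most libraries and high in 1. It was at 10.7, 12.0, 10.6 and 1.72 CPM in WT ST-HFD and at 2.63, 29.2, 11.4 and 15.98 CPM in IRF5-KO ST-HFD. On LT-HFD it was at 3.76, 21.4, 191 and 12.0 CPM in WT and at 18.3, 5.48, 10.5 and 10.96 CPM in IRF5-KO. The groups overlapped in every comparison. The log2 fold change over time in WT was 2.73 (SE 0.90, edgeR adjusted p = 0.0339), and without WT LT-HFD replicate 3, which held 686 counts, it was 0.51 (edgeR adjusted p = 0.645). In IRF5-KO it was -0.35 (SE 0.93, edgeR adjusted p = 0.807). Between genotypes Cxcl13 was at 0.75 (SE 0.63, edgeR adjusted p = 0.9998) on ST-HFD and at -2.33 (SE 0.94, unadjusted p = 0.0301, edgeR adjusted p = 0.853) on LT-HFD, which became -0.10 without that library.

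The WT call of Cxcl13 was also lost with the replicate number as a block (2.08, edgeR adjusted p = 0.125), in a fit of the 8 WT libraries alone (2.76, adjusted p = 0.0712) and without the 2 low ST-HFD libraries (2.85, adjusted p = 0.0723). The same held without ST-HFD replicate 1 (2.87, edgeR adjusted p = 0.0632), 2 (2.93, adjusted p = 0.0558), 3 (2.84, adjusted p = 0.0632) or 4 (2.38, adjusted p = 0.0876). In WT LT-HFD replicate 3, markers of B cells, the cells that Cxcl13 attracts, summed to 7.80 CPM, within the 5.89 to 9.31 CPM of the other WT LT-HFD libraries. Markers of peritoneal macrophages, which are known to make Cxcl13, summed to 20.3 CPM there, within 15.6 to 46.9 CPM in the others. Over all libraries, the r of Cxcl13 was 0.36 with the peritoneal macrophage sum (0.59 within groups). With the B cell sum it was 0.47 (0.47 within groups), and the part of these cells was not tested. Most like Cxcl13 were Tfam (r = 0.76), Gpr108 (r = 0.76) and Cd55 (r = 0.74), lower values than for the members above.

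Cxcl14 was near the lower end of detection, at 6.11, 0.925, 2.78 and 5.92 CPM in WT ST-HFD and at 5.37, 2.07, 5.57 and 4.82 CPM in WT LT-HFD. In IRF5-KO it was at 3.24, 1.28, 1.62 and 2.71 CPM on ST-HFD and at 8.996, 5.48, 11.3 and 4.57 CPM on LT-HFD. These IRF5-KO values came from 5 to 16 counts on ST-HFD and 15 to 41 counts on LT-HFD, and the 2 groups did not overlap, as for 14.3% of all genes in that direction. Cxcl14 rose over time in IRF5-KO by 1.77 (SE 0.49, edgeR adjusted p = 0.0100), a call that held in all 15 alternatives at 1.51 to 2.02. In WT the log2 fold change was 0.19 (SE 0.47, edgeR adjusted p = 0.810). Between genotypes Cxcl14 was at -0.84 (SE 0.53, edgeR adjusted p = 0.9998) on ST-HFD and 0.74 (SE 0.38, edgeR adjusted p = 0.853) on LT-HFD.

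The IRF5-KO groups that differed in Cxcl14 also differed in fibroblast markers, as given above. The part of these cells was not tested. The genes most like Cxcl14 were Cd9 (r = 0.91), a tetraspanin, Asph (r = 0.90) and Tgfbr1 (r = 0.89), a receptor for transforming growth factor beta. The r of Cxcl14 was 0.54 with the fibroblast sum (0.06 within groups), -0.80 with the neutrophil sum (-0.71 within groups), and -0.75 both with the dendritic cell sum (-0.60 within groups) and with the interferon-gamma arm (-0.69 within groups). The neutrophil sum was mostly Csf3r, at group means of 18.5 to 35.1 CPM. The other markers of that list had group means of 0.762 CPM or less, so this r describes Csf3r more than neutrophils.

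Cxcl16 was the most even member. It was at 109, 163, 131 and 127 CPM in WT ST-HFD, 116, 147, 129 and 120.25 CPM in IRF5-KO ST-HFD, 152, 125, 138 and 122 CPM in WT LT-HFD and 139, 103, 142 and 101 CPM in IRF5-KO LT-HFD. The groups overlapped in every comparison, and the log2 fold changes ran only from -0.15 (SE 0.14, genotype on LT-HFD) to 0.04 (SE 0.14, duration in WT), with no edgeR adjusted p under 0.781. Most like Cxcl16 were Slamf9, Herc6 and Rnf180, each at r = 0.72. Of 8 genes that cut or trim chemokines or act on the proteases that do, none was called between genotypes, with the smallest p for Rhbdf2 (0.28, SE 0.20, edgeR adjusted p = 0.9998) on ST-HFD and Mmp9 (-1.88, SE 0.63, edgeR adjusted p = 0.853) on LT-HFD. Over time, 3 of 8 rose in WT, where 12.1% of all genes did, and 2 in IRF5-KO, where 15.6% did. The gelatinase gene Mmp2 rose by 3.21 (SE 0.46) and 3.35 (SE 0.46), Timp3, an inhibitor of metalloproteases, by 2.62 (SE 0.48) and 2.19 (SE 0.47), and Dpp4, a peptidase that trims Cxcl10 and Cxcl12, by 1.54 (SE 0.43) in WT, each with an edgeR adjusted p of 0.0142 or less. Mmp2 and Timp3 are also expressed by fibroblasts.

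The difference of the genotype effect between durations was called for no gene. edgeR called 0 of 8 members and 0 of 11560 genes, as did DESeq2, while 3 members and 3.93% of genes had an unadjusted p under 0.05. These were Cxcl10 at -1.43 (SE 0.54, unadjusted p = 0.0177), Cxcl13 at -3.08 (SE 1.29, unadjusted p = 0.0288) and Cxcl14 at 1.58 (SE 0.68, unadjusted p = 0.0326), each with an edgeR adjusted p of 0.969. Without WT LT-HFD replicate 3, the value of Cxcl13 was -0.87. The changes of Cxcl10, Cxcl13 and Cxcl14 that were called in 1 genotype are therefore not shown to differ from those in the other.

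Of the receptors, 3 of 8 were tested. Ackr3, the atypical receptor that removes Cxcl12, was at 5.72, 6.94, 5.80 and 3.25 CPM in WT ST-HFD and at 14.0, 29.7, 10.3 and 62.3 CPM in WT LT-HFD, without overlap, as was so for 12.3% of all genes in that direction. In IRF5-KO it was at 5.06, 8.20, 10.7 and 3.20 CPM on ST-HFD and at 29.4, 6.03, 29.5 and 29.5 CPM on LT-HFD, where replicate 2 lay inside the ST-HFD range. Ackr3 rose by 2.45 (SE 0.56, edgeR adjusted p = 0.00357) in WT and by 1.82 (SE 0.55, edgeR adjusted p = 0.0177) in IRF5-KO, beside the rise of its ligand Cxcl12 and of the fibroblast markers. Cxcr4, the signalling receptor of Cxcl12, stayed at 73.5 to 119 CPM, with no call and log2 fold changes from -0.12 to 0.09 over the 4 comparisons of groups. Cxcr3, the receptor of Cxcl9 and Cxcl10, was at 1.103 to 7.22 CPM and had no call. Its log2 fold change was -1.17 (SE 0.48, edgeR adjusted p = 0.853) between genotypes on LT-HFD, and its interaction was -1.91 (SE 0.67, edgeR adjusted p = 0.969). Cxcr1 was at 0 in every library, and Cxcr2, the receptor of the neutrophil chemokines, gave at most 2 counts in any library, so receptor RNA for Cxcl1, Cxcl2 and Cxcl3 was near or under detection at this depth. Of 6 other CXC chemokines, only Pf4, the platelet factor 4 gene that macrophages also express, was tested. It was at 167 to 390.4 CPM with no call, its log2 fold changes between groups ran from -0.31 to 0.12, and its interaction was -0.42 (SE 0.23).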

How the data were processed

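F4/80+ ATM libraries were made with a stranded total RNA kit, and the authors aligned the reads to mm10 with STAR 2.7.3a and deposited raw counts per gene. The submitters' processing notes also name fastp 0.19.11, and the build mm9 beside mm10. The annotation release and strand setting are not given in the sources used here. Counts were analysed as deposited, with 37310 gene rows. CPM used TMM factors over the 16 libraries. Genes passing filterByExpr (minimum count 10) were tested by edgeR 4.0.16 (R 4.3.3), quasi-likelihood, with Benjamini-Hochberg adjustment over all genes tested and a threshold of 0.05. Genotypes were compared in fits of the 8 libraries of a duration, and durations and the interaction in a fit of all 16. DESeq2 1.42.0 was an alternative. Correlations used log2(CPM + 1). The scripts were tested on simulated data.

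The members, gene lists and tests were chosen with earlier results of these data known. Named genes were all members, receptors and other CXC chemokines that passed the filter, up to 4 called genes of each pathway list per comparison or else that with the smallest p, the 3 genes most like each member, and Irf5, Lyz2 and Adgre1. Cxcr1, Cxcr2, Ly6g, Cd209a, Ccr2, Plac8, Chil3, Csf3r, Prg4, F5 and Gata6, outside this rule, were named after their values were seen. Leaving out WT ST-HFD replicate 3 with IRF5-KO ST-HFD replicate 4, and the protein-coding transcript length, were chosen after seeing the data. Replicate numbers come from the titles. Same-numbered ST-HFD libraries of the genotypes had r of 0.381, 0.492, 0.182 and 0.3 (highest r with another number 0.479, 0.423, 0.423 and 0.479), so each pair passed 0.1, while replicates 1, 3 and 4 correlated better with another number. On LT-HFD and between durations not every pair passed 0.1. The smallest chi-square per degree of freedom between libraries of 1 group was 4, so none was taken for a repeat of another. A further promoter motif is not reported here.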

Additional observations from a re-analysis of the deposited data

Results flagged for a closer look

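In 3 of 36 groups of 4 libraries, 1 library of a CXC chemokine lay far from the other 3 by Dixon's criterion, which chance gives in about 1 of 20 groups. Cxcl9 was at 51.0 CPM in IRF5-KO ST-HFD replicate 2, with the nearest other library at 4.66 CPM. Cxcl13 was at 1.72 CPM in WT ST-HFD replicate 4, with the nearest at 10.6 CPM. Cxcl13 was at 191 CPM in WT LT-HFD replicate 3, with the nearest at 21.4 CPM.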

How the results depend on the processing

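Of 648 log2 fold changes under an alternative of the 8 members that passed the filter, 584 kept direction and call, 20 lost a call, 1 gained one, and 43 differed in sign, none of them called either way. No member was called between genotypes or for the interaction under any alternative run. The replicate block changed no call on ST-HFD. Over time in WT, the 2 called members became 1 with the replicate block, 1 in the fit of the 8 WT libraries and 1 without WT ST-HFD replicate 3 and IRF5-KO ST-HFD replicate 4, and 0 to 2 when leaving out each library in turn. Over time in IRF5-KO, the 3 called members became 2 with the replicate block, 4 with DESeq2 (Cxcl3 added), 4 without WT ST-HFD replicate 3 and IRF5-KO ST-HFD replicate 4, and 2 to 4 when leaving out each library in turn. The cause was not tested.

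Signs changed for small or widely spread values. Without WT ST-HFD replicate 3 and IRF5-KO ST-HFD replicate 4, Cxcl9 between genotypes on ST-HFD was 0.06 and the interaction of Cxcl12 was -0.16. With the replicate block, Cxcl9 over time in IRF5-KO was 0.31. Leaving out each library in turn gave, on ST-HFD between genotypes, -0.23 to 0.67 for Cxcl1, -0.07 to 0.50 for Cxcl2, -2.32 to 1.19 for Cxcl9, -0.20 to 0.23 for Cxcl12 and -0.13 to 0.05 for Cxcl16. On LT-HFD between genotypes it gave -0.13 to 0.33 for Cxcl1 and -0.09 to 0.44 for Cxcl12. Over time in WT it gave -0.35 to 0.18 for Cxcl2, -0.13 to 1.90 for Cxcl9, -0.12 to 0.48 for Cxcl14 and -0.04 to 0.16 for Cxcl16. Over time in IRF5-KO it gave -1.15 to 1.55 for Cxcl9, -0.72 to 0.22 for Cxcl13 and -0.15 to 0.02 for Cxcl16. For the interaction it gave -0.53 to 0.36 for Cxcl1, -2.48 to 1.06 for Cxcl9 and -0.16 to 0.43 for Cxcl12.

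Over all genes, the genotype comparison on ST-HFD called 1 gene, and 2 with DESeq2, without the filter, with the replicate block or in a fit of 16 libraries. On LT-HFD it called 2 genes, 7 with DESeq2, 6 without the filter, 0 with the replicate block, and 0 without any one of WT replicates 1, 2 and 3 and IRF5-KO replicates 1, 3 and 4. Depth limits Cxcl3 and Cxcl14, whose libraries held at most 19 and 41 counts.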
